A study of Homo sapiens with 2 samples.

Results

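The genes named DDX and DHX, which encode the DEAD-box and DEAH-box RNA helicases, were followed in RNA recovered by immunoprecipitation from 293T cells, a human line derived from embryonic kidney and transformed by adenovirus, which also makes the large T antigen of SV40. Members were taken by symbol: every gene whose platform annotation names it DDX or DHX followed by a digit, from probe sets with exactly 1 symbol, with DDX3Y left out. This gave 55 names among 19775 named genes. Of these, 5 belong to noncoding transcripts or a pseudogene (DDX11-AS1, DDX11L2, DDX19A-DT, DDX59-AS1 and DHX9-AS1) and are given separately, which left 50 protein-coding genes, 34 DDX and 16 DHX. The brightest probe set stands for each gene. A gene was called detected when the mean of its 2 readings exceeded 0.92, the median over probe sets. By this rule 44 of the 50 were detected, 28 DDX and 16 DHX, against 13150 of the 19775 genes. DDX11, which encodes a DNA helicase of sister chromatid cohesion and not an RNA helicase, is kept because its symbol fits the rule.

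There were 2 Affymetrix arrays of the U133 Plus series, 1 per group. The miR-941 array held RNA from cells transfected with synthetic miR-941, and the antibody used was against Ago2, an Argonaute protein that carries microRNAs to their targets. The control array came from cells given a scrambled oligonucleotide, at the same 30 nmol/l. Its labels conflict, since the title speaks of Ago2 and the antibody field of nonimmune IgG beads. If the field is right, the effects of oligonucleotide and antibody cannot be told apart. Values are the authors' RMA expression values, taken as log2, and a difference is the miR-941 array minus the control array. With 1 array per group there is no replicate error and no test, and more mRNA in the cells and better recovery in the precipitate cannot be told apart.

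Both families carry a pair of RecA-like domains that bind ATP and RNA. They take their names from a short motif in the ATP-binding core that reads Asp-Glu-Ala-Asp in the DEAD-box proteins and Asp-Glu-Ala-His in the DEAH-box proteins. DEAD-box proteins clamp RNA and part short duplexes locally, whereas DEAH-box proteins move along single-stranded RNA and pull structures or proteins apart. Between them they drive spliceosome remodelling, ribosome assembly, mRNA export, translation initiation and mRNA repression. DDX6 binds the CCR4-NOT complex that microRNA-bound Argonaute recruits.

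The groups differ by design in the transfected oligonucleotide, and the sequence of the scrambled one is not given here. The transfected microRNA is shown because of this difference. RefSeq (GRCh38.p14) lists 5 genes for it, MIR941-1 to MIR941-5, with the same 23-nucleotide mature form, the first at chr20:63919495-63919517 on the plus strand. The capitals mark the seed, bases 2 to 8 from the 5′ end, which pairs with target mRNAs.
hsa-miR-941: cACCCGGCugugugcacaugugc
Seed matches in the helicase mRNAs were not analysed here.

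The helicases as a set differed little between the arrays, with the exception of DHX38. Of the 44 detected genes, 17 read higher on the miR-941 array, 24 lower and 3 the same, beside 46.3% higher, 42.4% lower and 11.3% equal over all detected genes. In percent, 38.6% of the helicases were higher and 54.5% lower. This split rests on the setting: with array medians set equal, 22 were higher and 22 lower, and with probe sets averaged, 21 were higher and 22 lower. Their median log2 difference was -0.019, against 0.00 over all detected genes, and their median absolute difference was 0.18, against 0.19. At 2-fold or more, 1 helicase was lower (0.289% of all detected genes) and 0 were higher (0.228%). No further helicase gene passed even 1.5-fold on its brightest probe set, a size that 2.94% of all detected genes reached upwards and 2.87% downwards. Leaving DHX38 out, the differences ran from -0.43 to 0.45 with an SD of 0.22. With DHX38 kept the SD was 0.39, against 0.30 over all detected genes. Of the 44 helicases 37 lay above the 75th percentile of level, against 8086 of the 13150 detected genes. Above that level, which leaves DHX38 out, the SD was 0.21 for the helicases and 0.26 for all genes.

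**Figure D1:**
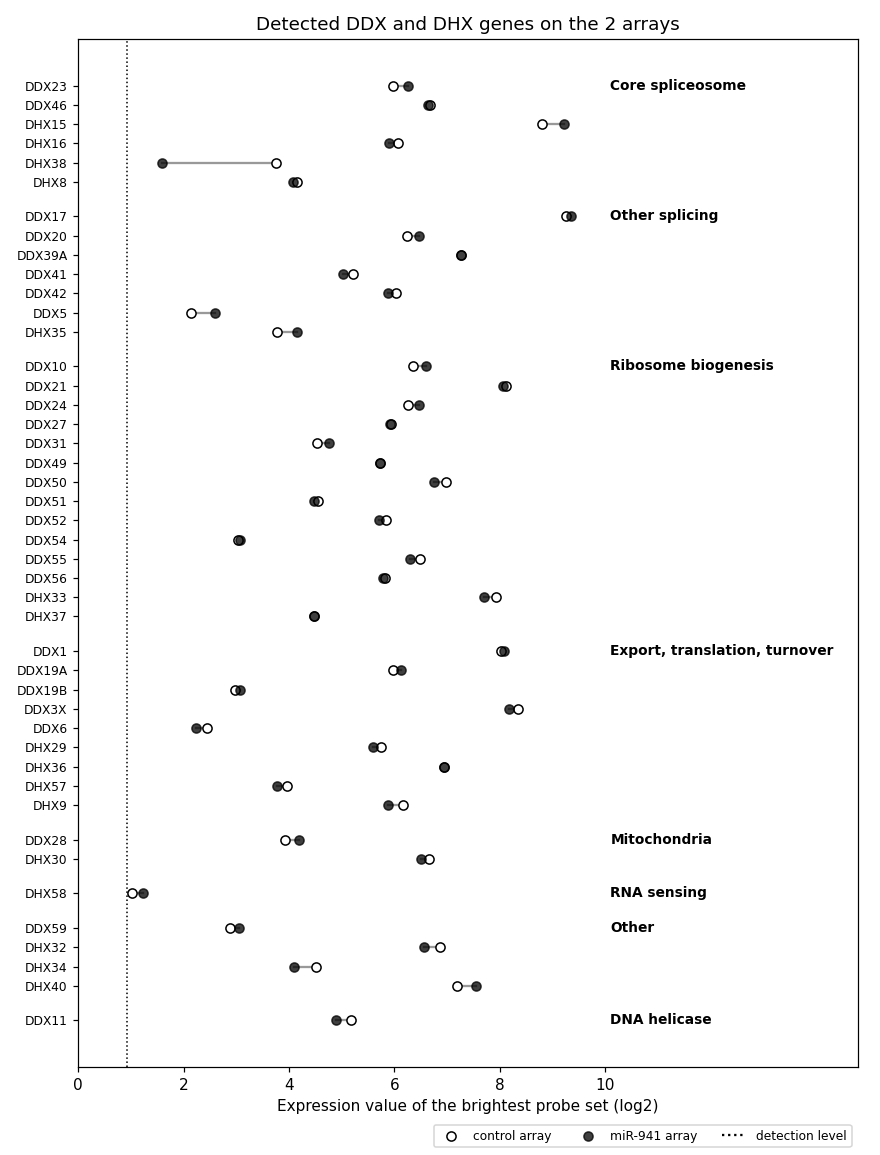
Expression value (log2) of the brightest probe set of each of the 44 detected DDX and DHX genes, with open circles for the control array and filled circles for the miR-941 array, grouped by role, with 1 array per group and the dotted line at the detection level of 0.92. The circles of most genes nearly coincide, and DHX38 is the exception at 3.76 and 1.59.

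DHX38, the human PRP16, remodels the spliceosome between its 2 catalytic steps. Its only probe set read 3.76 (control) and 1.59 (miR-941). The difference of -2.16 is 4.48-fold and was the lowest of all 13150 detected genes. Among the other 656 detected genes whose mean level lay within 0.25 of that of DHX38, differences ran from -1.44 to 1.04 with an SD of 0.38, with 7 of them 2-fold lower and 1 2-fold higher. DHX38 has no second probe set with which the reading could be compared, and its reading of 1.59 is dim, though above the detection level of 0.92.

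The other core spliceosomal helicases did not share the difference of DHX38. DDX46 (PRP5), which acts with the U2 particle at the branch site, read 6.68 (control) and 6.63 (miR-941). DDX23 (PRP28), which helps exchange U1 for U6 at the splice site, read 5.98 and 6.26. Both are DEAD-box proteins, and their differences of -0.04 and 0.28 have opposite signs. Among the DEAH-box members, DHX16 (PRP2), which activates the assembled spliceosome, read 6.06 and 5.90. DHX8 (PRP22), which releases the spliced mRNA, read 4.16 and 4.08. DHX15 (PRP43), which takes the spliceosome apart, read 8.81 and 9.22, a difference of 0.41 and the highest of any DHX gene. So of the 6 detected core helicases 4 were lower and 2 higher, with a median of -0.06, or -0.04 over the 5 without DHX38. The second probe sets of these genes bear on how far a single reading can be taken: that of DDX46 read 3.85 on the control array, with a difference of -0.84 beside -0.04 for the brighter one. The second of DHX8 read 3.53 and 2.94 (-0.59) and the remaining one was the same on both arrays. The second of DHX15 differed by only 0.06. DDX39B, the branch site helicase UAP56, has no value here because its probe sets list several genes.

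Proteins that work beside DHX38 were read as a list chosen with earlier results of these data known. All 15 of the listed spliceosome proteins that have a probe set of their own were detected. On their brightest probe sets 8 were higher and 7 lower, with a median of 0.03 and a range from -0.32 to 0.33, and none reached 2-fold. The lowest were PRPF18, a factor of the second catalytic step (5.52 control, 5.20 miR-941), and BUD31 (6.27 and 6.06). The detected probe sets of PRPF18 lay on both sides of 0, with a median of -0.10. Both detected probe sets of BUD31 were lower, with a median of -0.47. In the other direction, both of PLRG1 were higher, with a median of 0.35. The highest were XAB2 (1.59 and 1.91) and SYF2 (4.54 and 4.84). PRPF8, the large protein at the catalytic centre, read 7.50 and 7.36, and CDC40, another factor of the second step, read 7.68 and 7.49.

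Of 7 helicases associated with splicing in other ways, 4 were higher, 2 were lower and 1 was equal (median 0.10). DDX5 and DDX17 are paralogues that act as coregulators of transcription and splicing and as partners of the microRNA-processing enzyme Drosha. DDX17 read 9.26 (control) and 9.35 (miR-941), and of its 4 detected probe sets 3 were higher and 1 equal. DDX5 read 2.14 and 2.59, the highest DDX difference at 0.45, but on a dim probe set. A brighter probe set whose annotation lists DDX5 together with microRNA genes was not assigned to a gene, and it read 8.97 and 8.99. DDX20 (Gemin3), of the SMN complex that builds spliceosomal snRNPs, read 6.25 and 6.47, and its second probe set read 4.86 and 5.38. DHX35, a component of active spliceosomes, read 3.78 and 4.15. DDX41 read 5.22 and 5.02, DDX42, a partner of the splicing factor SF3B1, read 6.04 and 5.88, and DDX39A, the paralogue of DDX39B, read 7.26 on both arrays.

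The helicases of ribosome biogenesis had a median absolute difference of 0.10, the smallest of the 5 role groups with 4 or more detected members. Of 14 detected members 4 were higher, 9 lower and 1 equal, the median was -0.02, and the range ran from -0.22 to 0.26. DDX21, which couples transcription and processing of ribosomal RNA in the nucleolus, read 8.13 (control) and 8.07 (miR-941). Its paralogue DDX50 read 6.97 and 6.75. The pair had the same direction on the brightest probe sets, yet 1 of 2 DDX21 and 1 of 3 DDX50 probe sets were higher. DDX10 had the highest difference of the group, 0.26 (6.34 control, 6.60 miR-941). DHX33 had the second lowest difference after DDX50, at -0.22 (7.92 control, 7.70 miR-941), and its second probe set read 7.87 and 7.69. The other members, most of which also act in ribosomal RNA processing, lay between these. DDX24 read 6.26 and 6.47, and its other probe set was higher too. DDX55 read 6.49 and 6.29, and DDX51 read 4.55 and 4.47. DDX27, DDX49 and DDX56 differed by -0.02, -0.01 and -0.02 on their brightest probe sets, and DHX37 read 4.48 on both arrays. DDX52 was lower on all 3 detected probe sets, with a median of -0.16 ± 0.07 (SD over 3 probe sets), and read 5.84 and 5.71 on the brightest. DDX54 was higher on all 3, with a median of 0.26 ± 0.46. Its brightest, however, differed by only 0.04 (3.03 and 3.07), and the next, a dim one, read 1.30 and 2.23. DDX31 was higher on both probe sets. The dimmer of them read 2.59 and 3.67, a difference of 1.08 that is the only one past 2-fold apart from that of DHX38 among the 85 detected probe sets of the helicases, where 0.845% of all detected probe sets with 1 symbol passed.

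**Figure D2:**
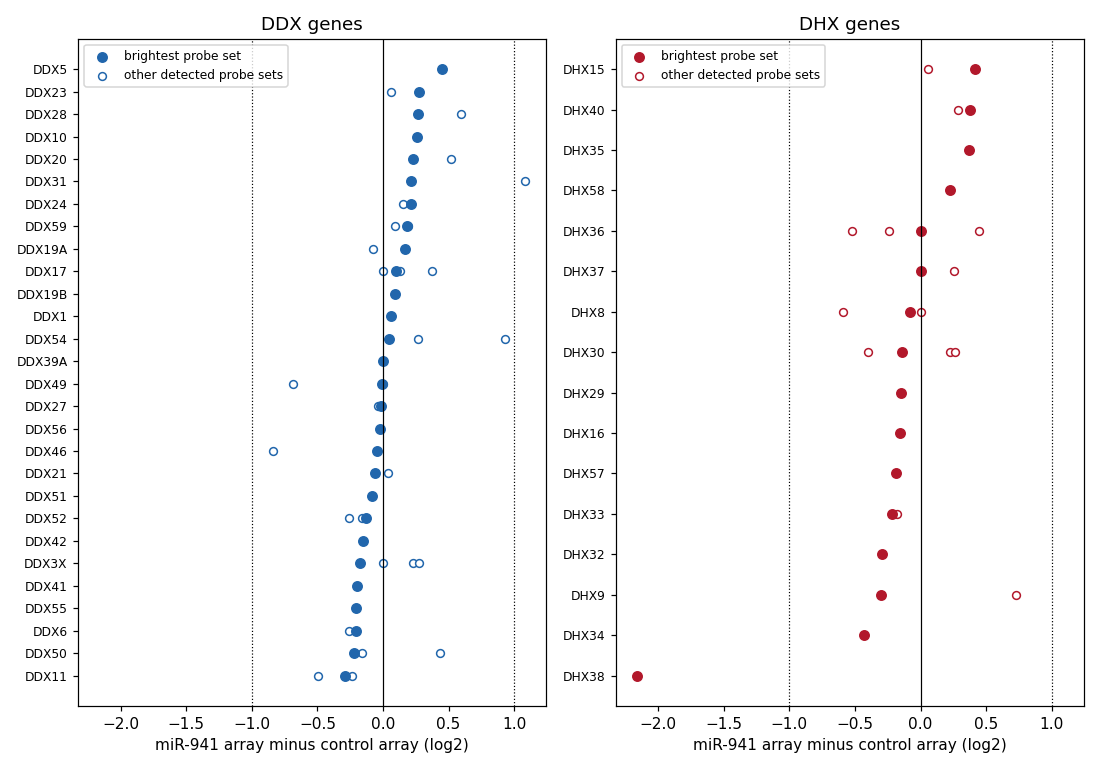
Log2 difference (miR-941 array minus control array) of every detected probe set of the 28 DDX genes (left) and 16 DHX genes (right), with the brightest probe set of each gene filled, the others open, and dotted lines at 2-fold. Genes are ordered by the brightest probe set; DHX38 lies at -2.16 and a second probe set of DDX31 at 1.08, while several genes have probe sets on both sides of 0.

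Among helicases of mRNA export, translation and turnover, 3 of 9 were higher, 5 were lower and 1 was equal (median -0.15). DDX6, the helicase of translational repression and decapping that works downstream of microRNAs, read 2.44 (control) and 2.23 (miR-941). Its second detected probe set read 1.77 and 1.52, so both were lower, by similar amounts at dim levels. DDX3X, which assists translation initiation on structured mRNAs, read 8.35 and 8.17 on its brightest probe set, but 2 of the other 3 were higher and 1 equal, and the median over the 4 was 0.11. DDX19A and DDX19B, near-identical export factors at the nuclear pore whose probe sets may share signal, read 5.97 and 6.13 (DDX19A) and 2.97 and 3.06 (DDX19B). DDX1 read 8.03 and 8.08. The 4 DHX genes of the group were never higher on the brightest probe set. DHX29, which helps ribosomes scan structured leaders, read 5.74 and 5.59, and DHX57 read 3.96 and 3.77. DHX36, which unwinds G-quadruplexes, read 6.95 on both arrays, and its 3 further probe sets differed by -0.24, 0.44 and -0.52. DHX9 (RNA helicase A), which resolves double-stranded RNA, read 6.17 and 5.87, whereas its second probe set read 2.64 and 3.37, a difference of 0.73 the other way.

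The remaining members cover mitochondria, RNA sensing and less settled roles. The mitochondrial ribosome assembly helicases differed in sign: DDX28 read 3.91 (control) and 4.18 (miR-941), with its second probe set higher by 0.59, and DHX30 read 6.66 and 6.51, and its 4 detected probe sets were split evenly. DHX58 (LGP2), a regulator of antiviral RNA sensing, read 1.01 and 1.24, the detected member nearest the detection level. DHX34, which acts in nonsense-mediated decay, read 4.52 and 4.09 on its only detected probe set, the lowest of any helicase after DHX38. DHX32 read 6.86 and 6.56. DHX40 read 7.18 and 7.56, with its second probe set at 6.22 and 6.51. DDX59 was higher on all 3 detected probe sets, with a median of 0.18 ± 0.05 (SD over 3 probe sets). Its brightest read only 2.87 and 3.06. DDX11, the DNA helicase, was lower on all 3, with a median of -0.29 ± 0.14, and read 5.17 and 4.88 on the brightest.

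The 4 germ line helicases and 2 of the 3 measured helicases of RNA sensing and the interferon response were not detected, DHX58 being the exception. DDX4 (Vasa), DDX25, DDX43 and DDX53 are known from germ cells, and DDX60 and DDX60L from the interferon response. Their brightest probe sets read between 0.14 and 0.71 over both arrays. The nearest below the detection level was DDX25, with a mean of 0.63, and the nearest above it DHX58, with 1.12. At such readings the arrays cannot show whether the mRNAs differ.

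The DHX genes lay slightly lower than the DDX genes. The median difference was -0.15 over 16 DHX genes and -0.0036 over 28 DDX genes, so the medians stood 0.14 apart. Of the DHX genes 4 were higher, 10 lower and 2 equal. Of the DDX genes 13 were higher, 14 lower and 1 equal, where 42.4% of all detected genes were lower. Leaving out DHX38 gave a DHX median of -0.14. A median hardly moves when 1 extreme value is dropped, so this is no check of the gap. The quartiles of the DDX genes (-0.13 and 0.19) and of the DHX genes (-0.24 and 0.06) overlap. The median level was 5.94 for the DDX genes and 5.82 for the DHX genes. Members share 1 hybridisation per array and are not replicates, so the gap has no test.

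**Figure D3:**
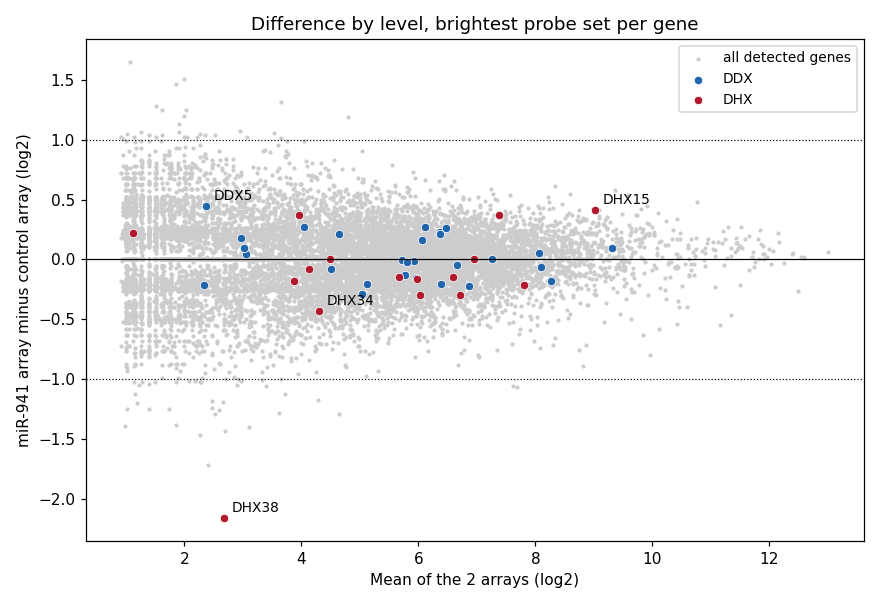
Log2 difference (miR-941 array minus control array) against the mean of the 2 arrays for the 13150 detected genes (grey), the 28 DDX genes (blue) and the 16 DHX genes (red), with dotted lines at 2-fold. DHX38 is the lowest point of the plot at -2.16; the other 43 helicases lie between -0.43 and 0.45.

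How far a helicase reading can be taken was seen from genes with more than 1 probe set. Of the 44 detected genes 18 rested on 1 detected probe set, DHX38 among them, and 26 had 2 or more. In 9 of the 26 all probe sets were higher, in 6 all were lower, and 11 were mixed or had an equal probe set, 7 of them with readings on both sides of 0. Over all genes with 2 or more detected probe sets, 16.5% were higher throughout and 17.1% lower throughout. With exactly 2 detected probe sets, 11 of 15 helicases had them in 1 direction (44.0% of all such genes), and with 3 or more, 4 of 11 (19.1%). The genes higher throughout included DDX20, DDX23, DDX24, DDX28, DDX31, DHX15 and DHX40, and those lower throughout included DDX6, DDX52 and DHX33. The SD within a gene, pooled over the 26, was 0.30, against 0.31 over 6106 genes. The differences of 38 of the 44 helicases were no larger than 0.31. The quartiles of all detected genes, -0.19 and 0.21, lay within that size too. The matching share over all detected genes was not counted, so the count of 38 describes the helicases only. The difference of DHX38 was 6.93 times as large as 0.31. That SD describes the probe sets of a gene and not the error between arrays, and DHX38 has only 1 probe set.

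The differences of the brightest and next brightest probe sets of the 26 genes had Pearson's r = 0.25 and Spearman's rho = 0.30, as a description over genes that share both arrays. In 18 of the 24 pairs in which both probe sets differed the signs were the same. The matching share over all genes was not counted, so this count describes the helicases only. The median absolute difference was 0.18 for the brightest probe sets (median level 5.94) and 0.26 for the 41 further detected ones (median level 3.43). The relation of level to absolute difference was weak, with Spearman's rho = -0.24 over the helicase probe sets and -0.14 over the helicase genes. Among the 85 detected helicase probe sets, 4 were 1.5-fold or more higher (3.62% of all detected probe sets with 1 symbol) and 4 were 1.5-fold or more lower (4.04%). Those higher belong to DDX28, DDX31, DDX54 and DHX9, and those lower to DDX46, DDX49, DHX8 and DHX38. The DDX49 one read 4.40 and 3.72 beside a brighter probe set at 5.73 and 5.72.

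**Figure D4:**
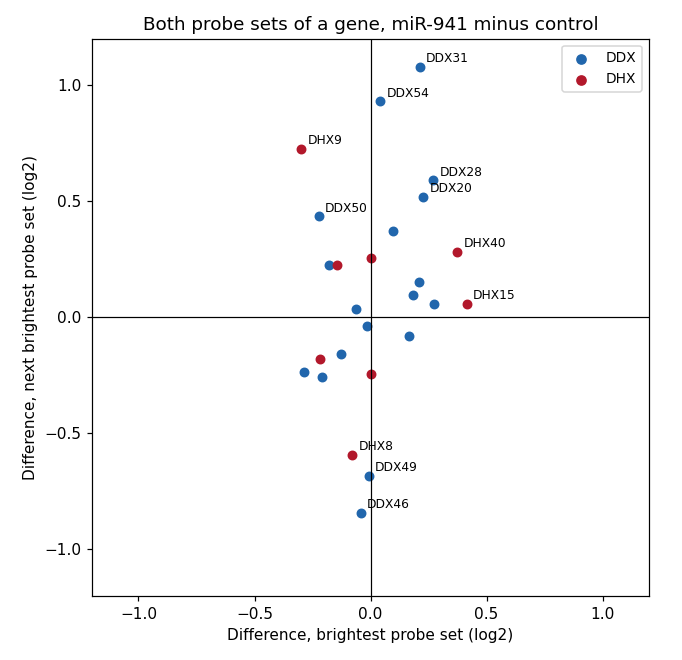
Log2 difference (miR-941 array minus control array) of the next brightest detected probe set against that of the brightest, for the 26 helicase genes with 2 or more detected probe sets, DDX in blue and DHX in red. Of the 24 genes with both probe sets off 0, 18 lie in the upper right or lower left quadrant; DHX9 and DDX50 lie in the upper left.

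Helicases that the symbol rule leaves out, read as a list, gave a similar picture. Of 13 detected RNA helicases of other names 5 were higher and 8 lower, with a median of -0.08 and none at 2-fold. SNRNP200 (BRR2), the helicase that unwinds U4 from U6, read 3.73 (control) and 3.38 (miR-941). EIF4A3, the DEAD-box core of the exon junction complex, read 7.68 and 7.60. The lowest were HELZ (5.61 and 4.92) and SNRNP200, and the highest were MOV10, which associates with Argonaute (3.51 and 4.14), and TDRD12 (0.81 and 1.44). The 3 detected HELZ probe sets were 1 higher, 1 lower and 1 equal, and the reading of TDRD12 was near the detection level.

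Cofactors were read as a pair of lists. G-patch proteins, which bind DEAH-box helicases and switch on their activity, were all detected where they had a probe set of their own (18), 6 of them higher, 10 lower and 2 equal (median -0.03). GPKOW, the partner of DHX16, had the highest difference (2.51 control, 3.15 miR-941), followed by GPATCH11 (4.15 and 4.38). GPATCH3 had the lowest (2.15 and 1.39), followed by AGGF1 (5.57 and 4.97), which was lower on all 4 probe sets. Of 16 partners of DEAD-box helicases 5 were higher and 11 lower, with a median of -0.09. SARNP, of the TREX export complex of DDX39B, had the highest difference (6.09 and 6.57), ahead of GLE1, which activates DDX19 at the nuclear pore (5.87 and 6.19). THOC2 (7.67 and 7.34) and the nucleoporin NUP214 (4.23 and 3.90) had the lowest. The detected probe sets of GLE1, THOC2 and NUP214 lay on both sides of 0. CNOT1, the scaffold through which DDX6 joins the deadenylase complex, read 9.26 and 9.15 on its brightest probe set. Of its 3 detected probe sets, however, 2 were higher, and their median difference was 0.14. None of these cofactors reached 2-fold.

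Over the whole series, the arrays correlated at r = 0.992 across 54675 probe sets, with medians of 0.92 (control) and 0.98 (miR-941). Of 12 genes chosen as markers of the cell line 10 were detected, KRT8 and LHX1 being the exceptions. KRT8 (0.99 control, 0.80 miR-941), LHX1 (0.97 and 0.76) and the detected PAX2 (0.86 and 1.23) all lay near the detection level. Among all named genes 13150 of 19775 were detected. Of 16 genes that mark other cell types, 8 were detected, most of them near the detection level. HBB, the beta globin gene, read 6.95 and 7.54. The log2 values of these 16 markers added up to 20.2 (control) and 22.0 (miR-941). Such a sum of logarithms also counts the undetected markers and is no measure of total mRNA. The part of these markers in the helicase values was not tested.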

How the data were processed

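RNA from immunoprecipitates of 293T cells was measured on 2 arrays, 1 per group. The deposited values are the authors' RMA quantification, 1 per probe set, per the labels, and were taken as log2 because they reach 13.7, above the natural logarithm of a 16-bit reading. Neither scale nor centring is stated. RMA, affy and MAS5 appear in the submitters' processing notes with no version or role. Names came from the platform annotation, where 41091 probe sets have 1 symbol. The brightest probe set over both arrays stood for a gene, and detection required a mean above 0.92. Differences are miR-941 minus control, counted at 1 (2-fold). Full values are given for genes past 2-fold, the 5 highest and lowest, the core spliceosomal helicases, the 5 brightest, genes whose detected probe sets (3 or more) share a direction, and the extremes of each comparison list. Levels of different probe sets depend on the probes, so they are no measure of mRNA amount between genes. The members and the lists were chosen with earlier results of these data known. Counting was checked on simulated differences. Python 3.11.15, pandas 2.3.3, scipy 1.17.1 and statsmodels 0.14.6 were used. Alternatives covered the gene summary, probe set suffixes, the level filter, a floor, a loess trend (span 0.4), array centring, membership and the fold threshold. The number of arrays limits the precision.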

Additional observations from a re-analysis of the deposited data

How the results depend on the processing

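No paired analysis was possible because there is only 1 array in each group, and leaving one out leaves no comparison. Including the 5 noncoding and pseudogene names was chosen after seeing the data. DHX38 lay between -2.19 and -2.14 in the 7 alternatives that gave it a value. Because DHX38 has 1 probe set, most of these could not change its difference of -2.16. Only trend removal (-2.19) and array centring (-2.14) did, so this narrow range is no check of the reading of DHX38. Above the 75th percentile of level it was left out, and the count of helicases 2-fold lower was 0. The DDX and DHX medians stayed 0.12 to 0.17 apart in all 11 alternatives, with the DHX median between -0.15 and -0.10. Array centring shifts both families alike and could not change this gap. The floor, current RefSeq symbols, and EIF4A genes in place of DDX11 also left it at 0.14. The 11 settings are therefore not 11 separate checks of the gap. The DDX median changed sign, between -0.016 and 0.030. The median of all helicases ran from -0.061 to 0.00065, and the latter, with array medians set equal, is the only setting of 11 that changed its sign. The median of the core spliceosomal helicases was -0.19 with probe sets averaged. Without DHX38 it was 0.098 when _x_at and _s_at probe sets were left out, which leaves 4 genes. DDX46 moved to -0.84 without those probe sets. DHX9 and DDX3X both changed direction when probe sets were averaged (0.21 and 0.081) and when their median was taken (0.21 and 0.11). Trend removal and centring moved the median of all genes by at most 0.02.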

Other observations

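Of the noncoding and pseudogene names, DDX11L2, a pseudogene transcript, read 1.51 (control) and 1.95 (miR-941), and DHX9-AS1 read 2.16 and 2.27. DDX11-AS1, DDX19A-DT and DDX59-AS1 were not detected. A probe set that lists DDX47 with APOLD1 read 8.39 and 8.65, the brighter of the 2 that list DDX39B with its neighbours read 6.29 and 6.38, and one that lists both DDX19A and DDX19B read 6.06 and 6.02. None of these was assigned to a gene.

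Several helicase probe sets hold exactly the same value on both arrays, at the full precision deposited. Of the 117 helicase probe sets 21 do (17.9%), beside 21.6% of all 54613 probe sets other than controls. Below the detection level 14 of 32 do (43.8%, beside 30.4%). Above the 75th percentile of level 3 of 58 do (5.17%, beside 6.32%): those of DDX39A, DHX36 and DHX37. Low readings also recur between genes. Probe sets of DDX3X, DDX6, DHX35 and DHX9 all read 0.51 on both arrays, a pair of values that 488 probe sets hold. A dim DDX49 probe set read 1.90 on both arrays, a pair that 21 probe sets hold. An equal or repeated reading of a dim probe set is therefore coarse and does not show an unchanged mRNA.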
